A study of Homo sapiens with 15 samples.

Results

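The enzymes that build purine and pyrimidine nucleotides from small precursors were followed on arrays of A2058 cells, an established human melanoma line, after 8 hours with one of 3 inhibitors of mitochondrial complex I. The members were the 10 genes CAD, DHODH, UMPS, CTPS1, PPAT, GART, PFAS, PAICS, ADSL and ATIC, of 26825 features tested, 4 of the pyrimidine route and 6 of the purine route. They were chosen by name, and their probes were found through the RefSeq accession of each probe. The groups were cells given NP (3 μM) in DMSO, DMSO alone, metformin (MET, 5 mM), phenformin (PHEN, 50 μM) or water (W), with 3 arrays of 3 independent experiments each and 15 arrays in all. The title of the series calls NP neopetasin, whereas the study describes petasin at the same dose and time in the same cells, and the name NP is kept here. The arrays addressed how these compounds affect the transcriptome of tumor cells, and the present comparisons ask whether the transcripts of nucleotide synthesis took part.

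Pyrimidine synthesis starts with CAD, a single protein with carbamoyl phosphate synthetase, aspartate transcarbamoylase and dihydroorotase activities. DHODH, in the inner mitochondrial membrane, then oxidizes dihydroorotate and passes the electrons to ubiquinone, which ties the route to the respiratory chain. UMPS makes UMP, and CTPS1 turns UTP into CTP. Purine synthesis is assembled on phosphoribosyl pyrophosphate (PRPP) by PPAT, GART, PFAS, PAICS, ADSL and ATIC, in that order of first use, and consumes glutamine, glycine, aspartate and formyl groups carried by folate. Aspartate enters both routes, and dividing cells such as melanoma cells draw on both.

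All 10 members were measured, through 13 probes, and every one of these probes was well above background on all 15 arrays. A level below is the log2 of a probe's intensity minus the log2 of the 75th percentile of the same array, and levels of different probes were not set against each other. Between 25805 and 45047 probes per array were well above background, and replicates of a group correlated with r from 0.974 to 0.997. DMSO and NP lay on one pair of slides and W, MET and PHEN on another, so that vehicle and slide set cannot be told apart. Of the markers of the line, SOX10, MITF, S100B, PMEL, DCT, AXL, NGFR and VIM were well above background on all 15 arrays with levels from 2.52 to 9.88. MLANA, a melanosome antigen, was also above it on all 15 but low, from -2.60 to 0.42. TYR, a melanin enzyme, reached that mark on 13 arrays. The epithelial genes EPCAM and KRT5 reached it on 0 arrays, whereas the leukocyte gene PTPRC and the endothelial genes PECAM1 and CDH5 did so on all 15 and CD3E on 11, at levels between -4.63 and -0.77. The part of other cells in the results was not tested. In bulk RNA, fewer cells of a type and less RNA per cell cannot be told apart.

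No change in any of the 10 members passed the test with NP. In NP against DMSO, 0 members passed the threshold (a 1.5-fold change and an adjusted p of at most 0.05 by limma over all features), where 10 of 26825 features (0.0373%) passed it (0 without replicate 1, 2 or 3). At an unadjusted p of at most 0.05 the count of members was also 0, against 4.69% of all features. The log2 fold changes of the members ran from -0.11 (UMPS) to 0.15 (DHODH), with a median of -0.02 beside -0.01 over all features. The groups of NP and DMSO overlapped for all 10 members, and they did not overlap for 6.44% of features.

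CAD, which commits glutamine and aspartate to pyrimidines, read 3.52, 3.57 and 3.40 on the 3 DMSO arrays and 3.40, 3.51 and 3.29 on the 3 NP arrays. Each NP array lay below the DMSO array of the same replicate number, but the groups overlapped. The log2 fold change was -0.09 (SE 0.11, 95% interval -0.33 to 0.14) and the adjusted p was 1.

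DHODH, the enzyme that hands electrons to ubiquinone, read 2.70, 2.44 and 2.76 with DMSO and 2.64, 2.76 and 2.94 with NP. NP replicates 2 and 3 were higher than their DMSO partners and replicate 1 was lower. Its log2 fold change of 0.15 (SE 0.10, 95% interval -0.07 to 0.36) was the highest among the members in NP against DMSO, and the adjusted p was 1.

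UMPS, the last step to UMP, read 5.20, 5.11 and 5.29 with DMSO and 5.01, 4.99 and 5.28 with NP. It was lower in all 3 pairs, with log2 differences of -0.19, -0.13 and -0.01, and the groups overlapped through replicate 3 of NP. CTPS1, the CTP synthase, had a mean level of 5.52 ± 0.0566 (SD, n = 3) with DMSO and 5.47 ± 0.0837 (SD, n = 3) with NP, a log2 fold change of -0.05.

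Among the purine enzymes, 3 were higher and 3 lower with NP, none past the threshold. PPAT, the amidotransferase that commits PRPP to purines, had a log2 fold change of -0.08 (95% interval -0.38 to 0.22). GART, which acts at 3 of the steps, had the highest value of the purine enzymes, 0.09 (95% interval -0.16 to 0.34), and was lower in pair 1 and higher in pairs 2 and 3. PFAS (0.04), PAICS (-0.04), ADSL (-0.01) and ATIC (0.04), which build and close the ring, lay closer to 0.

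**Figure D1:**
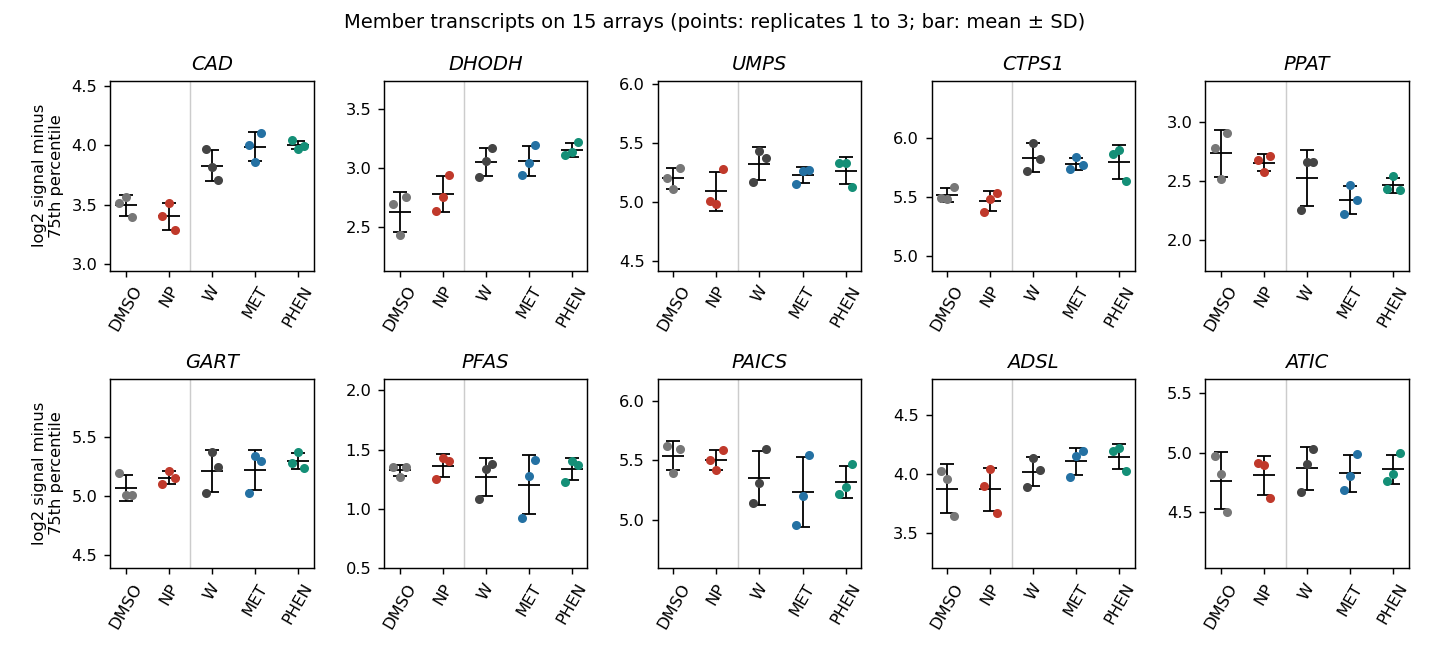
Level of each member on every array, as log2 intensity minus the log2 75th percentile of the array, with 1 point per array and bars for the mean ± SD of 3 arrays. All panels span the same range of log2 units, and treated and vehicle points overlap in every panel on either side of the grey line except PHEN against W for CAD.

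No member passed the test with metformin or phenformin against water either. Water is the control that the series' design text names for these compounds, whereas the study's supplemental methods set them against DMSO, and the choice changes the values. In MET against W, 0 of the 10 members passed the threshold, as did 0 of 26825 features (0%), and 0 members had an unadjusted p of at most 0.05, against 2.46% of features. In PHEN against W the counts of members were again 0 and 0, against 7 features (0.0261%, and 0 features without replicate 1, 2 or 3) and 2.35% of features. The members' log2 fold changes ran from -0.18 (PPAT) to 0.16 (CAD) with MET, with a median of -0.05 beside 0.00 over all features. With PHEN they ran from -0.06 (PPAT) to 0.17 (CAD), with a median of 0.03 beside -0.03 over all features.

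CAD read 3.97, 3.81 and 3.70 with W, 4.00, 3.86 and 4.10 with MET and 4.04, 3.97 and 3.99 with PHEN. It was higher in all 3 pairs with both biguanides, by 0.03, 0.05 and 0.40 with MET and by 0.08, 0.16 and 0.29 with PHEN. The groups of MET and W overlapped, and the lowest PHEN array lay just above the highest W array. The log2 fold changes were 0.16 (SE 0.11, 95% interval -0.08 to 0.40) with MET and 0.17 (SE 0.11, 95% interval -0.06 to 0.41) with PHEN, with adjusted p of 1 in both. CAD was the member whose PHEN and W groups did not overlap, 1 of 10, against 8.13% of all features. With MET the count was 0 of 10, against 5.76% of features.

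PPAT had the lowest log2 fold change of any member with MET. It read 2.25, 2.66 and 2.67 with W, 2.22, 2.46 and 2.34 with MET and 2.43, 2.54 and 2.43 with PHEN. The first W array was low, near the MET arrays, and the groups overlapped in both comparisons. The log2 fold change with MET was -0.18 (SE 0.13, 95% interval -0.48 to 0.11), with an adjusted p of 1, and with PHEN it was -0.06.

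PAICS, the bifunctional enzyme that carries out the carboxylation and the addition of aspartate, read 5.14, 5.31 and 5.59 with W and 4.96, 5.20 and 5.55 with MET. It was lower in all 3 MET pairs, with log2 differences of -0.19, -0.11 and -0.04, and the spread among the W arrays was wider than these differences. The remaining members had log2 fold changes between -0.10 (UMPS) and 0.09 (ADSL) with MET. With PHEN the members other than CAD lay between -0.06 (PPAT) and 0.13 (ADSL).

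Set against DMSO, which lay on other slides, 0 of 10 members passed the threshold with either compound, where 4569 features passed with MET and 2761 with PHEN. CAD then stood at 0.50 with MET and 0.51 with PHEN (adjusted p = 0.00945 and 0.012), and DHODH at 0.43 and 0.52 (adjusted p = 0.012 and 0.00797), all short of a 1.5-fold change. PPAT stood at -0.39 and -0.27, and PAICS at -0.30 and -0.22 (adjusted p of at least 0.0545). These values hold the difference between the vehicles as well as that of the compound.

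Each of the 30 intervals of the 10 members in the 3 comparisons limits the size of a change against the vehicle used there. They are separate 95% intervals, not adjusted for their number, and do not cover MET and PHEN set against DMSO. Every one of the 30 95% intervals lay within a 1.5-fold change in either direction, from a lowest bound of 0.715-fold (PPAT with MET) to a highest bound of 1.33-fold (CAD with PHEN). Over all features the share with such an interval was 53.4% in NP against DMSO, 53.0% in MET against W and 55.2% in PHEN against W. With 1 replicate left out, between 6 and 10 of the 10 members kept such an interval, the fewest with MET without replicate 2. A change smaller than the intervals is not excluded by them. The median absolute log2 fold change of the members was 0.07, 0.08 and 0.06 in the 3 comparisons in that order, and that of all features was 0.11, 0.12 and 0.10. The members were well above background on every array, as were only 19433 of the 26825 features. The shares and medians of all features were not matched to the members for signal, and the part of signal level was not tested.

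**Figure D2:**
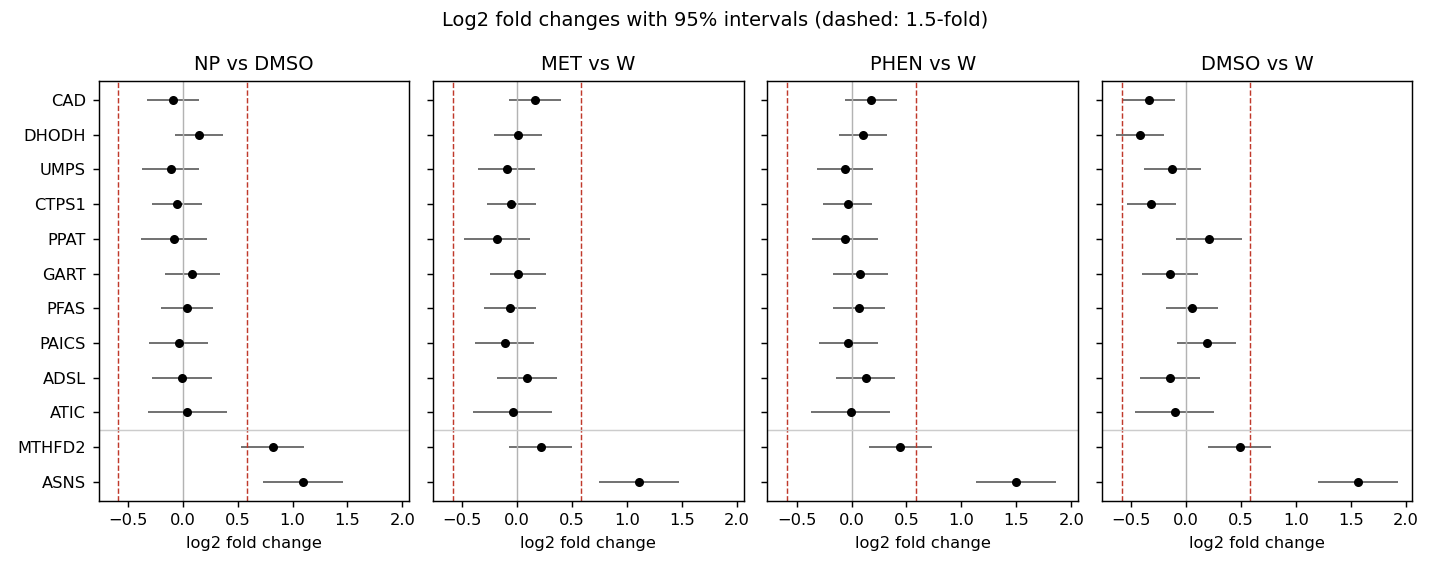
Log2 fold changes (points) with 95% intervals (lines) of the 10 members, and of MTHFD2 and ASNS below the grey line, in 4 comparisons, with dashed lines at a 1.5-fold change. In the 3 comparisons of a compound with its vehicle all member intervals lie between the dashed lines, whereas ASNS lies to the right of them; in DMSO against W the interval of DHODH crosses the left line.

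The direction of the members varied among the pairs of arrays with the same replicate number. In the first pair all 10 members were lower with NP than with DMSO, with a median of -0.11, and all 10 were higher with PHEN than with W, with a median of 0.15. The other pairs did not repeat this. In pairs 2 and 3, 8 and 5 members were higher with NP, and 4 and 2 were higher with PHEN. With MET, 6, 2 and 5 members were higher in the 3 pairs. Over all features the medians of the first pair were -0.03 with NP and -0.02 with PHEN. Of the 30 sets of 3 pairs, 9 had 1 direction in all 3 pairs. Without the first replicate the median over members was 0.03 with NP and -0.03 with PHEN.

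**Figure D3:**
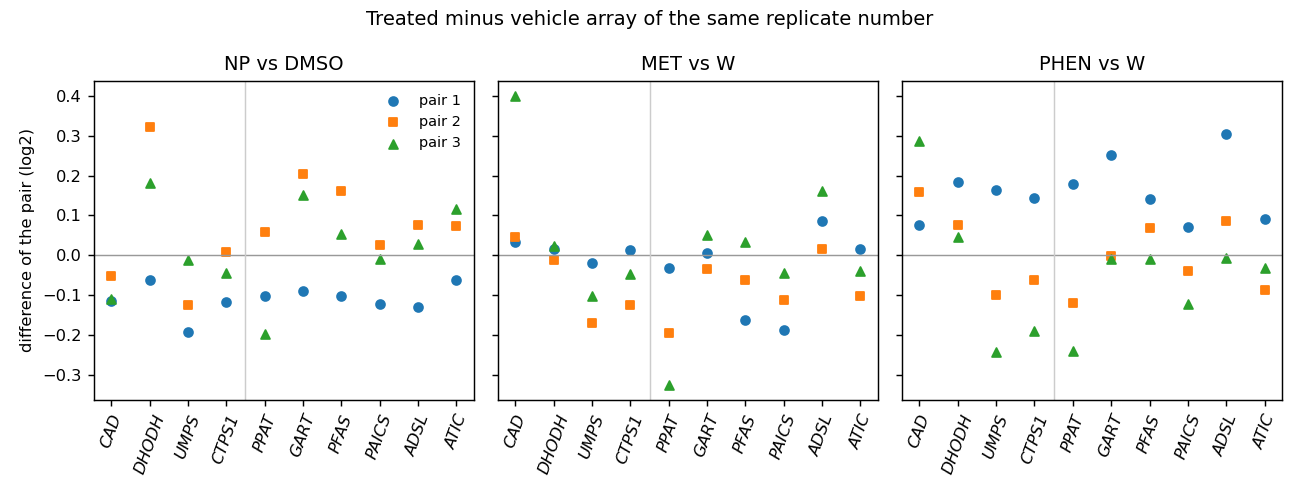
Difference in log2 level between the treated array and the vehicle array of the same replicate number, for each member, with 1 symbol per pair and a grey line between pyrimidine and purine enzymes. The first pair (circles) lies below 0 for all 10 members with NP and above 0 for all 10 with PHEN, and the other pairs lie on both sides of 0.

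The effect of a compound on a member was not shown to differ between compounds. For the NP effect minus the MET effect, 0 of 10 members passed the threshold and 0 had an unadjusted p of at most 0.05, against 0% and 2.78% of features. For the NP effect minus the PHEN effect the counts were 0 and 0, against 0% and 2.43% of features. CAD, lower with NP and higher with the biguanides, had the largest differences, -0.25 against MET (SE 0.15, 95% interval -0.59 to 0.08) and -0.27 against PHEN (SE 0.15, 95% interval -0.60 to 0.07), each with an adjusted p of 1. With the replicate block within each vehicle set, CAD had an unadjusted p of 0.0492 (adjusted p = 0.686) for the NP effect minus the PHEN effect, 1 member in place of 0. The 2 intervals given for CAD reach past a 1.5-fold difference, as does that of ATIC in the former comparison. Phenformin, a biguanide with a phenethyl group in place of the methyl groups of metformin, was given at a dose different from that of metformin. In PHEN against MET all 10 members were higher, by 0.01 (CAD) to 0.13 (PFAS), as were 11880 of 26825 features. Of the members, 0 passed the threshold and 0 had an unadjusted p of at most 0.05, against 0% and 2.87% of features. All 10 intervals lay within a 1.5-fold change. All 10 members were higher in pair 1, but only DHODH, PPAT and ATIC were higher in all 3 pairs. The other members were lower in pair 3, as in ADSL (0.22 in pair 1 and -0.17 in pair 3).

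In DMSO against W more features passed than in any comparison of a compound with its vehicle, 2843 (10.6%), although 0 passed without replicate 1 or 2 and 5056 without replicate 3, and 33.8% had an unadjusted p of at most 0.05. Of the members, 0 passed the threshold and 3, all of the pyrimidine route, had an unadjusted p of at most 0.05 and were lower with DMSO. The same 3 were the members whose groups did not overlap, against 29.6% of all features. DHODH read 2.93, 3.06 and 3.17 with W, above all 3 DMSO arrays, a log2 fold change of -0.42 (SE 0.10, adjusted p = 0.0193) that stayed under 1.5-fold. CAD and CTPS1 had log2 fold changes of -0.34 (adjusted p = 0.0546) and -0.32 (adjusted p = 0.0573). Over replicates left out in turn the adjusted p of DHODH ran from 0.0541 to 0.269. The median over all features was itself -0.12 with this scaling, 0.03 with normexp background correction and -0.01 with quantile normalization. The 3 genes were lower with DMSO under each of these scalings.

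PPAT and PAICS share a start region, and with the probes used their values lay on the same side of 0 in each comparison. Another probe of PPAT gave 0.04 with PHEN, on the other side of 0 from PAICS. UMPS and CTPS1, on different chromosomes, also shared a sign with NP, MET and PHEN and in DMSO against W. The part of the shared region in these values was not tested. The RefSeq starts of PPAT (minus strand) and of one PAICS transcript (plus strand) on chromosome 4 of GRCh38.p14 face away from each other, with 136 bases between them at chr4:56435616-56435751. This stretch is shown because both genes are read outward from it, 5′ to 3′ on the PAICS strand, with the GC box letters GGGCGG in capitals.
PPAT-PAICS: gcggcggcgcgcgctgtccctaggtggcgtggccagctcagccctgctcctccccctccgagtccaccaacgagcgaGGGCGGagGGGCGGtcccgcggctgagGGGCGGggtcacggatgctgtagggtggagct
It holds the motif 3 times. GGGCGG, on either strand, was present in the windows (250 bases before to 50 after a start) of 8 of the 9 members with an entry, and of 48.3% of all genes in the table. The pair had log2 fold changes of -0.08 (PPAT) and -0.04 (PAICS) with NP, of -0.18 and -0.11 with MET, of -0.06 and -0.03 with PHEN, and of 0.21 and 0.19 in DMSO against W, none past the threshold.

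MYC, a transcription factor that raises nucleotide synthesis genes in many cells, binds the E-box CACGTG, which reads the same on both strands. The letters were present in the windows of 4 of the 9 members with an entry (ATIC, DHODH, PAICS and PPAT) and of 8.78% of all genes in the table, and PPAT and PAICS share 1 site. The 3 stretches below show the E-box in capitals with 12 bases on either side, on the strand of the gene, at positions -159 (DHODH), -46 (ATIC) and -182 (PPAT) from the RefSeq start, and ATIC holds another at position 29.
DHODH (chr16:72008573-72008602, plus strand): gccgctactgcgCACGTGcacccaaccaga
ATIC (chr2:215312001-215312030, plus strand): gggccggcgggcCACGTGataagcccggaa
PPAT (chr4:56435780-56435809, minus strand): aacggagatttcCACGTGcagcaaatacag
A match is a description of the letters and not of binding. The transcript of MYC itself had log2 fold changes of 0.20 with NP, -0.24 with MET and 0.06 with PHEN, each with an adjusted p of 1. Of the 10 genes listed for MYC and its dimer network, 9 were tested and 0 passed the threshold in these 3 comparisons. The largest change of that list with NP was in MXD4, a repressor that competes for MAX, at -0.53 (adjusted p of 1). ADSL had no promoter entry.

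PPAT, GART and CTPS1 each had a second probe. The second probes of PPAT and CTPS1 gave log2 fold changes of -0.02 and -0.03 with NP, -0.09 and -0.02 with MET and 0.04 and 0.02 with PHEN, so that the sign with PHEN differed between probes for both genes. The second probe of GART is assigned to a short transcript of that gene. It gave 0.12 with NP, -0.07 with MET and 0.13 with PHEN, and in DMSO against W it gave 0.28 where the first probe gave -0.15. The second probe of CTPS1 gave -0.51 in DMSO against W (adjusted p = 0.0116 over probes), where the first gave -0.32.

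Genes that feed or follow the 2 routes were counted by list. With NP, 0 of the 4 PRPP supply genes, 5 AMP and GMP branch genes, 7 late pyrimidine and nucleotide kinases, 7 deoxynucleotide synthesis genes and 11 salvage genes passed the threshold, and the same counts of 0 held with MET and PHEN. The largest changes with NP were in PRPS1 (-0.16) and PRPSAP2 (-0.11), which make PRPP or regulate its synthesis, ADSS1 (-0.23) and IMPDH1 (-0.17) at the branch to AMP and GMP, and CMPK1 (-0.11) and DTYMK (-0.08), nucleotide kinases. RRM2 (-0.19) and RRM1 (-0.06), the subunits of ribonucleotide reductase, and UCKL1 (-0.14) and APRT (-0.11), of salvage, also gave small values. All 10 had an adjusted p of 1. Of these lists, 1 branch gene with NP (ADSS1) and 1 salvage gene with MET (UCKL1, 0.28) had an unadjusted p of at most 0.05, a count near the shares of all features (4.69% with NP and 2.46% with MET). All 7 deoxynucleotide genes were below 0 with MET, with a median of -0.10 beside 0.00 over all features, and RRM2 was lowest at -0.38. Of these 7 genes, 0 had an unadjusted p of at most 0.05 with MET, and 13134 of 26825 features were below 0. All 4 PRPP supply genes and all 5 branch genes were below 0 with NP, with medians of -0.10 and -0.05 beside -0.01 over all features. With NP, 14437 of 26825 features were below 0.

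Larger values were found in the one-carbon and the aspartate and glutamine lists. MTHFD2, the mitochondrial folate enzyme that prepares formyl groups for the purine ring, read 5.19, 5.01 and 5.05 with DMSO and 5.81, 5.99 and 5.91 with NP. Every NP array was above every DMSO array. Its difference of 0.82 on the log2 scale (SE 0.13, adjusted p = 0.0901) missed the threshold, and the values with PHEN and MET were 0.44 and 0.21 (adjusted p of 1 in both). With the replicate number as a block within each vehicle set the adjusted p with NP was 0.0282, and over 15 alternative settings it ran from 0.0164 to 1. Of the 8 genes of this list, 0 passed the threshold in each of the 3 comparisons. The 2 with an unadjusted p of at most 0.05 with NP were MTHFD2 and SHMT2 (0.30), the mitochondrial serine hydroxymethyltransferase, named here after its value was seen, and the same 2 genes did so with PHEN. Over all features the shares at that p were 4.69% with NP and 2.35% with PHEN. MTHFD1L, which releases formate in mitochondria, stood at 0.32 with NP (adjusted p of 1).

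ASNS, which uses aspartate and glutamine to make asparagine and so draws on the precursors of both routes, read 4.04, 4.32 and 4.48 with W, 5.09, 5.41 and 5.66 with MET and 5.70, 5.75 and 5.89 with PHEN. All MET and PHEN arrays were above all W arrays. With PHEN it rose 2.83-fold (SE 0.16 on the log2 scale, adjusted p = 0.0406), the one call among the 7 aspartate and glutamine supply genes, and the log2 fold change with MET was 1.11 (SE 0.16, adjusted p = 0.214). The call with PHEN was lost when replicate 1, 2 or 3 was left out, with adjusted p from 0.132 to 1 and log2 fold changes from 1.42 to 1.54. With NP the log2 fold change was 1.09 (SE 0.16, adjusted p = 0.0762), and 0.0282 was the adjusted p with the block within each vehicle set, in a range from 0.0179 to 1 over 15 alternative settings. Replicate 3 of DMSO, at 6.54, was above the other DMSO arrays at 5.41 and 5.59. The gene was also higher in DMSO than in W, by 1.57 (adjusted p = 0.00339), and against DMSO the values for MET and PHEN were -0.46 and -0.07. GOT1, a cytosolic aspartate aminotransferase, had log2 fold changes of 0.22, 0.23 and 0.24 with NP, MET and PHEN (adjusted p of 1 in each).

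Known targets of ATF4, the transcription factor of the amino acid response, were included as a comparison measured on the same arrays. SESN2 and TRIB3 rose with NP, by 1.16 (adjusted p = 0.0296) and 1.01 (adjusted p = 0.0459), 2 of the 4 genes of that list. CHAC1 and DDIT3 stood at 1.83 (adjusted p = 0.0901) and 1.04 (adjusted p = 0.247) with NP. CHAC1 passed with NP under the replicate block within each vehicle set (adjusted p = 0.0301), the slide term (0.0343) and normexp (0.0185). SESN2 and CHAC1 rose with PHEN, by 0.99 and 2.40 (adjusted p = 0.0406 in both), and 0 of the 4 passed with MET. These 4 calls were lost when replicate 1, 2 or 3 was left out, with adjusted p of at least 0.288, and also with no replicate block (at least 0.0622). Their log2 fold changes without a replicate stayed between 1.08 and 1.26 (SESN2) and 0.86 and 1.09 (TRIB3) with NP, and between 0.95 and 1.09 (SESN2) and 2.28 and 2.49 (CHAC1) with PHEN, and with 2 arrays per group 0 of all features passed in these comparisons. CHAC1 was itself higher in DMSO than in W, by 1.16, past the threshold, and its DMSO arrays read 2.93, 1.64 and 3.40. Set against DMSO, which lay on other slides, CHAC1 and SESN2 stood at 0.98 and 0.70 with MET and at 1.24 and 0.89 with PHEN. These values passed the threshold. The study had described this class of genes on these arrays, so that their direction is not independent evidence.

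The genes whose differences most resembled those of the members were found by the Pearson correlation of 9 paired differences (3 compounds, 3 pairs) with the median of the members, over 16480 genes. TARBP1 (r = 0.99), ZC3H15 (0.98), STX18 (0.98), P4HB (0.97) and CHST11 (0.97) came first. The 9 differences share the vehicle arrays of W, and these values are the highest of many and are given as a description.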

How the data were processed

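The authors purified total RNA, labeled it with a single dye, hybridized Agilent human arrays and extracted spots with Agilent Feature Extraction (10.7.3.1 per the file headers, 9.1 per the submitters' notes). The deposited intensity values are background-subtracted and detrended spot signals, not normalized between arrays, with deposited flags for background. The authors also deposited log2 values, scaled to the 75th percentile and floored at 4, with 31.4% to 50.8% of an array at the floor. They correlated with the values used here at r = 1 on every array, which cannot cover the values at the floor. The genome build of the probe design is not given in the sources used here.

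Control spots and outlier spots (50 to 240 per array) were removed, repeated spots were averaged, and log2 values were centered on the array's 75th percentile. Of 58201 probes, 31104 were named through RefSeq accessions and 32913 were well above background on all 3 arrays of a group. No spot was saturated. A gene took its probe with the highest mean, and a feature needed values on 8 arrays. limma 3.58.1 in R 4.3.3 fitted group and replicate number over 15 arrays, and two-sided p-values were adjusted by Benjamini and Hochberg's method over the 26825 features. The study's paired test and its 1.5-fold threshold guided this design. Same-numbered arrays deviated together within each vehicle set (r from 0.217 to 0.855) but not between DMSO and W (r from -0.186 to -0.021). The numbers thus do not pair arrays across the sets. The main fit used a replicate term shared by both sets, and its SEs, intervals and adjusted p rest on that term. With the block within each vehicle set, 52 features passed with NP in place of 10. Replicates 1 and 2 of NP and DMSO lay on the same slide. Their arrays of different number correlated nearly as much (r of 0.289 and 0.242) as those of the same number (0.306 and 0.331). Pairing by number was thus not shown apart from the slide for NP and DMSO. Promoter windows came from RefSeq (GRCh38.p14). Python 3.11.15, pandas 2.3.3, numpy 2.4.6 and matplotlib 3.10.9 were used. The fit was tested on simulated data with replicate effects shared by all groups, as the fit assumes. That test cannot show whether such a shared term suits these arrays. The number of arrays limits the precision.

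The members and gene lists were chosen with earlier results of these data known. Named genes were all members, the 2 genes with the largest change with NP in each related list, and any called gene of those lists. Lists covered PRPP supply, AMP and GMP branches, late pyrimidine and nucleotide kinases, deoxynucleotide synthesis, salvage, one-carbon donors, aspartate and glutamine supply, MYC and its dimer network, ATF4 targets and cell type markers. Alternatives were normexp, quantile normalization, the authors' table, 2 filters on dim probes, the mean of a gene's probes, no replicate block, a block within each vehicle set, a slide term, a fit restricted to the compared groups, the methods' t-test, DMSO as comparator, and each replicate left out.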

Additional observations from a re-analysis of the deposited data

How the results depend on the processing

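The count of members past the threshold was 0 under every alternative run, in all 7 comparisons. The block within each vehicle set and the slide term leave no estimate of DMSO against W, and the fit of only the groups compared, the methods' t-test and DMSO as comparator were run for the comparisons of a compound with its vehicle. Of 470 member values under alternatives, 447 kept their direction. Those that turned were near 0 except with DMSO as comparator. Normexp gave 0.0018 for ADSL and -0.0334 for ATIC with NP, and -0.0029 for DHODH and -0.0072 for GART with MET. Quantile normalization gave 0.0171 for ADSL with NP, and the mean of a gene's probes gave -0.0313 for GART with MET. With DMSO as comparator, which also changes the slide set, the median over members was 0.11 for MET and 0.16 for PHEN. The same setting gave for MET 0.0272 (UMPS), 0.26 (CTPS1), 0.0607 (ATIC), -0.28 (MTHFD2) and -0.46 (ASNS), and for PHEN 0.0648 (UMPS), 0.28 (CTPS1), 0.0942 (ATIC), -0.0475 (MTHFD2), -0.25 (MTHFD1L) and -0.0685 (ASNS), and the members that kept their sign moved too, CAD from 0.16 to 0.50, DHODH from 0.01 to 0.43 and PPAT from -0.18 to -0.39 with MET. RRM2 and UCKL1 passed there with MET (-0.95 and 0.87), as did CHAC1 and SESN2 (0.98 and 0.70). With PHEN, RRM2 (-0.78), CHAC1 (1.24) and SESN2 (0.89) passed there. The cause was not tested.

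Leaving out each replicate number in turn gave with NP -0.066 to 0.0085 for PAICS, -0.0496 to 0.0532 for ADSL and -0.0237 to 0.11 for PFAS, and with MET -0.0141 to 0.0281 for GART. With PHEN it gave -0.0061 to 0.13 for GART, -0.059 to 0.0305 for ATIC, -0.17 to 0.0323 for UMPS, -0.13 to 0.0404 for CTPS1, -0.18 to 0.0298 for PPAT and -0.0802 to 0.0157 for PAICS. With 2 arrays per group the intervals widen, and 10, 9 and 10 members with NP, 8, 6 and 10 with MET and 8, 8 and 10 with PHEN stayed within a 1.5-fold change without replicates 1, 2 and 3.

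With the replicate block within each vehicle set, 52 features passed with NP, 2 with MET and 9 with PHEN, against 10, 0 and 7, and with no replicate block 3, 0 and 0 passed. A slide term gave 63, 2 and 16, normexp 26, 0 and 9, quantile normalization 17, 0 and 6, and probes above background on all arrays 26, 0 and 6. No filter on dim probes, the fit of only the groups compared and leaving out any replicate gave 0, 0 and 0. The methods' t-test without adjustment gave 214, 124 and 168, and 0, 0 and 0 after Benjamini-Hochberg adjustment. DMSO as comparator gave 4569 with MET and 2761 with PHEN. DMSO against W gave 2843 and, without replicates 1, 2 and 3, 0, 0 and 5056, and 1214 with normexp, 1899 with the authors' table and 1633 with probes above background on all arrays. Signal over background limits dim probes, and the members were not dim.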

Other observations

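Of the salvage and deoxynucleotide genes, 3 passed the threshold in DMSO against W and 0 in a comparison of a compound with its vehicle. DCK, which phosphorylates deoxycytidine, and RRM2B, a subunit of ribonucleotide reductase, were higher in DMSO than in W by 0.88 (adjusted p = 0.008) and 0.74 (adjusted p = 0.025) on the log2 scale. UCKL1, a uridine kinase, stood at -0.59 (adjusted p = 0.013). Of the 11 salvage genes, 2 passed the threshold in this comparison, 1 in each direction, and of the 7 deoxynucleotide genes 1 did, not far from the 10.6% of all features. UCK1, PNP and APRT gave -0.57, -0.46 and -0.40 with adjusted p from 0.0053 to 0.0169, short of the fold threshold. All 3 calls were lost without replicate 1 or 2, when 0 features passed. Vehicle and slide set cannot be told apart in these values. These genes were chosen after their values were seen, except UCKL1 and APRT.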
